A study of Mus musculus with 8 samples.

Results

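The genes described here are 46 genes of glycolysis and of the response to low oxygen, chosen by name, with earlier results of these data known. They were 17 glycolytic enzymes, the 3 PFKFB enzymes, 4 genes of the pyruvate dehydrogenase step, 4 genes of glycogen and glucose phosphate metabolism, 8 HIF subunits and oxygen sensors, and 10 genes that HIF is known to activate. Their values were read from bulk RNA-Seq libraries of MCECs, a mouse cell line of cardiac endothelial origin. The control group, EV, held 4 libraries of MCECs that received lentivirus with an empty vector. The Hdac3 KO group held 4 libraries of MCECs that received a CRISPR lentivirus with a guide RNA to Hdac3, a histone deacetylase of the nuclear receptor corepressor complexes. No low-oxygen treatment is named for either group, and whether the Hdac3 KO cells were 1 clone or a pool is not given in the sources used here. The study's general statements speak both of technical replicates for in vitro work and of biological samples, and the sources used here do not say for these libraries whether the 4 of a group came from separate cultures, so the p-values measure the spread between these libraries, which may be technical. The table lists 8278 genes, each selected by the authors for an adjusted p-value under 0.05 between the same 2 groups, and 35 of the 46 genes had a row in it. Hk1, Pfkm, Pfkp, Aldoc, Ldhb, Pdk3, Egln1, Egln3, Ankrd37, Adm and 1 of the 2 phosphoglucomutase genes had no row in the table and were not analysed here.

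Glycolysis breaks glucose down to pyruvate in a chain of cytosolic reactions, and lactate dehydrogenase can turn the pyruvate into lactate, while the pyruvate dehydrogenase complex sends it into the mitochondria. Endothelial cells are known to draw much of their ATP from glycolysis. HIF is a transcription factor of an alpha subunit, encoded by Hif1a or Epas1, and a beta subunit, encoded by Arnt. In the presence of oxygen, prolyl hydroxylases of the Egln family mark the alpha subunit, and the ubiquitin ligase subunit encoded by Vhl then directs its breakdown, so HIF is controlled largely at the protein level, which RNA-Seq does not read.

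Library totals ranged from 15775327 to 21262575 reads in EV and from 19356714 to 22255684 in Hdac3 KO MCECs. The targeted gene, Hdac3, ranged over 1934 to 2137 normalized counts in EV libraries and 1458 to 1551 in Hdac3 KO libraries, a log2 fold change of -0.45 (standard error 0.04). RNA counts do not read the loss of the protein, and the study reports that the deletion in Hdac3 KO MCECs was verified by western blot. Normalized counts are read counts divided by the relative size of the library. The labelled cell type could be checked only in part, since a gene can lack a row in this selected table at any level. Of 19 endothelial markers, 8 had a row, and among them Pecam1 was at 0 to 8.20 normalized counts in every library. Eng and Cd34 had means of 1436 and 4623 in EV MCECs, while Cdh5, Tie1, Cldn5 and 8 others had no row. Marker lists of other cell types moved with the condition. The summed FPKM (reads scaled to gene length and library total) of the 8 of 13 fibroblast and mural markers with a row was 1484 to 1526 in EV and 1117 to 1138 in Hdac3 KO libraries. That of the 8 endothelial markers was 121 to 123 in EV and 91.4 to 94.5 in Hdac3 KO libraries, and that of 3 of 5 epithelial markers was 298 to 312 and 342 to 355. The sums rest mainly on the most abundant markers, and the median log2 fold change was -1.32 for the fibroblast and mural markers (2 higher, 6 lower), -0.38 for the endothelial markers (1 higher, 7 lower) and 1.20 for the epithelial markers (3 higher). Of 11 cardiomyocyte and 8 immune markers only Myl7 (60.9 in EV and 19.9 normalized counts in Hdac3 KO MCECs) and Cd68 (131 and 301) had a row. The part of these markers in the results below was not tested, and in bulk RNA fewer cells of a type and less RNA per cell cannot be told apart.

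Of the 35 genes, 18 were higher and 15 were lower in Hdac3 KO than in EV MCECs at an adjusted p under 0.01 in edgeR's quasi-likelihood test. The same test called 47.1% of all 8278 genes higher and 49.6% lower, so a called gene is the rule in this selected table, and the direction and size carry the description. Since the rows were selected on the same libraries, adjusting over them does not control the share of false calls. An adjusted p near 0.01 is thus no firm boundary. Most of the differences were small. Only 10 of the 35 genes were called with a log2 fold change beyond 0.5 in either direction, against 38.5% of all genes of the table. The median log2 fold change was 0.11, against 0.06 over all genes, and the median absolute log2 fold change was 0.34, against 0.40. The libraries of the groups did not overlap for 33 of the 35 genes, against 91.1% of all genes. The direction differed by role. Of 12 glycolytic enzymes 10 were higher, all 3 member genes of the pyruvate dehydrogenase step with a row were lower, and the HIF subunits, sensors and targets were divided. Besides Pdha1, 4 subunits of the pyruvate dehydrogenase complex that are not members had a row, and all 4 were higher (Pdhb 0.25, Dlat 0.26, Dld 0.36 and Pdhx 0.34 on the log2 scale). The lists were chosen with earlier results of these data known and received no test of their own. Library totals without TMM factors lowered the log2 fold change of all genes by a median of 0.12, and 14 of the 35 genes were then higher and 16 lower. Of all 8278 genes, 2671 were then higher and 4120 lower. Under that scaling Aldoa, Arnt and P4ha1 changed direction, with values of -0.04, -0.01 and -0.08, and the other 32 genes kept theirs.

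**Figure D1:**
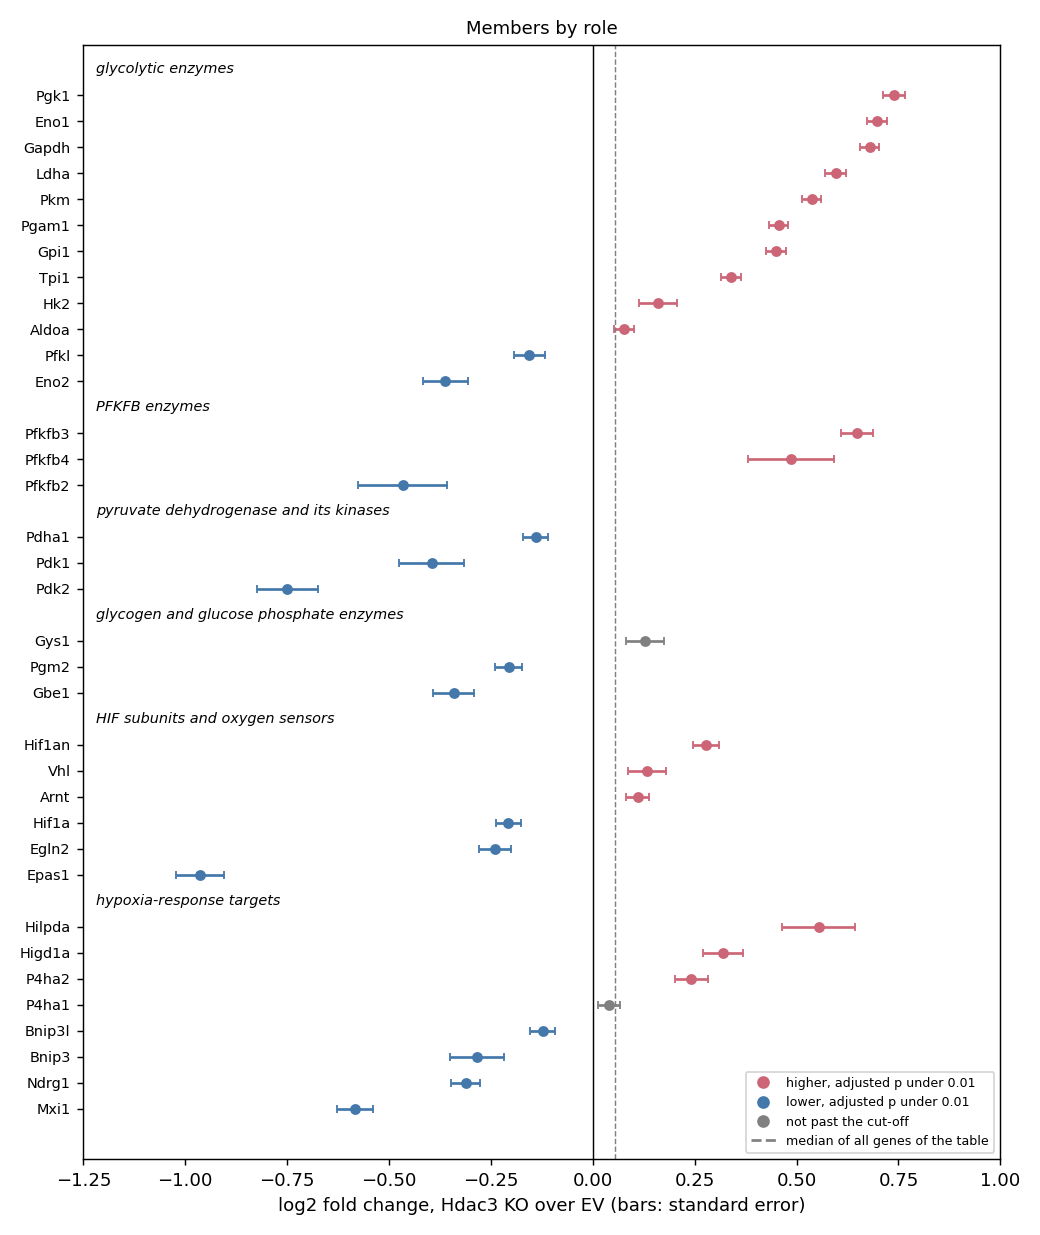
Log2 fold change of Hdac3 KO over EV MCECs (x axis) for the 35 genes with a row, grouped by role, with bars of the standard error. Red points were higher and blue points lower at an adjusted p under 0.01, grey points were not past it, and the dashed line is the median of all 8278 genes, 0.06. The glycolytic enzymes lie mostly to the right, up to 0.74 for Pgk1, the pyruvate dehydrogenase genes lie to the left, and Epas1 is the lowest at -0.96.

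Many genes of these pathways are known to carry HIF-binding sequences near their start. The promoter windows of the members were thus read for ACGTG, a form of the core letters of the hypoxia-response element, on both strands. The form GCGTG was not searched, so a window without ACGTG can still hold the core. RefSeq windows on the mm10 build (GRCm38) were matched to 32 of the 35 genes, leaving Epas1, Bnip3l and Ndrg1 without one. Of their 47 windows of 250 bases before a start, 21 (44.7%) held ACGTG, against 16.6% of all 32851 windows of the same length. Windows of 1 gene can overlap. The share was 42.3% in the windows of genes that were higher and 47.4% in those of genes that were lower, so the motif was found in genes of both directions. A match describes the letters in the window and not bound HIF. ACGTG also lies inside the E-box CACGTG, which other factors read, and 6 of the 47 windows (12.8%) held that longer word, against 6.02% of all windows. The stretches below are the 160 bases before a start for genes that were higher (Pgk1 and Ldha) and lower (Pdk2 and Mxi1), shown because the same letters stand before genes that moved in opposite directions. Capitals mark each ACGTG or its reverse complement CACGT.

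They lie at chrX:106186940-106187099 on the plus strand (Pgk1), chr7:46845644-46845803 on the plus strand (Ldha), chr11:95041372-95041531 on the minus strand (Pdk2) and chr19:53329253-53329412 on the plus strand (Mxi1). Ldha and Pdk2 have 2 windows each and Mxi1 has 3, and a window with the motif was taken.
Pgk1: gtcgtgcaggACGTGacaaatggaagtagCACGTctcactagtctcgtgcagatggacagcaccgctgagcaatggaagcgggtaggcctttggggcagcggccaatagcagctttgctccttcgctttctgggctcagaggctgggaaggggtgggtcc
Ldha: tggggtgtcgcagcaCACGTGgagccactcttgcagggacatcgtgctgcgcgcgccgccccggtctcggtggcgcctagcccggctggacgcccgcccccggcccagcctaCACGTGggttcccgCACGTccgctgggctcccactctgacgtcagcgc
Pdk2: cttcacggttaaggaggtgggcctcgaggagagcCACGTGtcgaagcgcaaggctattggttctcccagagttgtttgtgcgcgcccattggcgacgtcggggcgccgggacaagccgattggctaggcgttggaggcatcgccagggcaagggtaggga
Mxi1: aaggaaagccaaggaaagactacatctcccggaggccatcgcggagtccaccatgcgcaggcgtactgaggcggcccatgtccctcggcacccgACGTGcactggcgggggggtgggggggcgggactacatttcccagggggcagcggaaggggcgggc

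The stretch before Pgk1 holds 2 matches, and that before Ldha holds 5 matches counted over both strands, among them E-boxes that read the same on either strand. The stretch before Pdk2 holds 1 E-box, counted once on each strand, and that before Mxi1 holds a single match.

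Transcripts of the glycolytic enzymes were more abundant in Hdac3 KO MCECs for most steps of the pathway. The 12 enzymes with a row had a summed level of 5254 ± 89.2 FPKM (SD, n = 4) in EV and 7057 ± 92.3 FPKM (SD, n = 4) in Hdac3 KO MCECs, with 0.964% and 1.29% of all reads falling on them. The lowest Hdac3 KO library, at 6919 FPKM, was above the highest EV library, at 5377 FPKM. FPKM values are scaled to the library total alone, without TMM. Of the 12 enzymes, 10 rose and 2 fell, where 47.1% of all genes were higher and 49.6% lower. The median log2 fold change of the 12 was 0.45, against 0.06 over all genes. Under library totals without TMM, 8 were higher and 2 lower, with a median of 0.34 against -0.06 over all genes. 

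Pgk1 (ENSMUSG00000062070, chrX:106187100-106203699, plus strand), which encodes phosphoglycerate kinase, an ATP-yielding step, had the highest log2 fold change of the 35 genes. In EV replicates 1 to 4 it had 7007, 6747, 6797 and 6915 normalized counts, against 11402, 10919.9, 11610.3 and 11939.9 in the Hdac3 KO libraries. Every Hdac3 KO library was above every EV library, and the mean was 67.0% higher (log2 fold change 0.74, standard error 0.03, adjusted p = 6.3e-23, quasi-likelihood F-test of edgeR, Benjamini-Hochberg adjusted over 8278 genes, as for each adjusted p below). Eno1 (ENSMUSG00000063524, chr4:150236721-150248879, plus strand), the widely expressed enolase, had 21407, 22195, 22346 and 22661 in EV and 36293, 35386, 35687 and 36342 in Hdac3 KO libraries, with 22152 ± 533 and 35927 ± 468 as mean ± SD (n = 4 each). This is a rise of 62.2% (log2 fold change 0.70, standard error 0.02, adjusted p = 1.3e-23), again without overlap of the groups. Gapdh (ENSMUSG00000057666, chr6:125161853-125166467, minus strand), the dehydrogenase that makes NADH in the pathway and a common reference gene in PCR, had 40916, 41645, 42267 and 43386 in EV and 67355, 65616, 68097 and 68266 in Hdac3 KO libraries. Its rise was 60.1% (log2 fold change 0.68, standard error 0.02, adjusted p = 3.2e-23).

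Ldha (ENSMUSG00000063229, chr7:46841475-46855627, plus strand) encodes the lactate dehydrogenase subunit known for turning pyruvate into lactate. It had 10960.0, 10764, 11199 and 11228 normalized counts in EV and 17033, 16098, 16829 and 16800.2 in Hdac3 KO libraries, 51.2% higher (log2 fold change 0.60, standard error 0.03, adjusted p = 3.8e-21). The EV libraries all lay below the Hdac3 KO libraries. Pkm (ENSMUSG00000032294, chr9:59656368-59679375, plus strand), pyruvate kinase, had 46637, 47834, 47834 and 49316 in EV and 70375, 68128, 69911 and 69581 in Hdac3 KO libraries, 45.1% higher (log2 fold change 0.54, standard error 0.02, adjusted p = 1.6e-20). The gene row does not separate the M1 and M2 forms of Pkm, and exons of other genes on the same strand overlap 15.3% of its exonic bases.

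Of the enzymes with smaller changes, Pgam1 (phosphoglycerate mutase), Gpi1 (glucose phosphate isomerase) and Tpi1 (triose phosphate isomerase) rose with log2 fold changes of 0.46, 0.45 and 0.34. For Gpi1, 11.5% of the exonic bases also lie in an exon of the other strand. Hk2, the hexokinase that phosphorylates glucose, rose by 0.16 (adjusted p = 0.002), and Aldoa, an aldolase, by 0.08 (adjusted p = 0.0039). Pfkl, the phosphofructokinase of the committed step, fell by 0.16 (adjusted p = 3.0e-04). Both small rises depended on single libraries and on the scaling. Without EV replicate 3 or Hdac3 KO replicate 2 the adjusted p of Hk2 was 0.01007 or 0.016, and without EV replicate 2 or 3 that of Aldoa was 0.016 or 0.018. Under library totals without TMM, Hk2 had a log2 fold change of 0.04 (adjusted p = 0.39) and Aldoa one of -0.04 (adjusted p = 0.11).

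**Figure D2:**
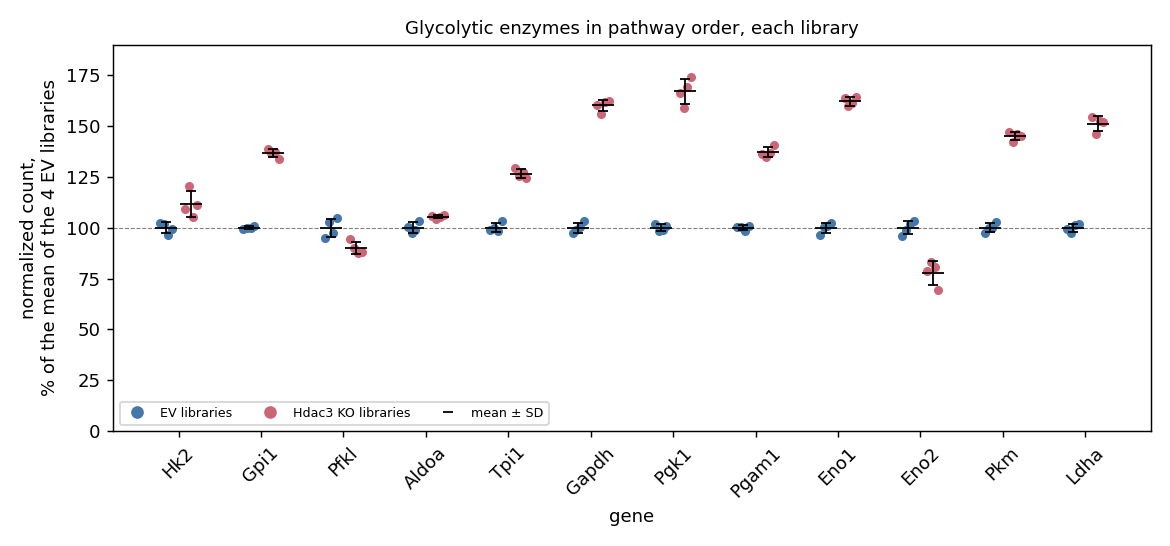
Normalized count of each glycolytic enzyme in each library, as a percentage of the mean of the 4 EV libraries (y axis), in pathway order (x axis), with the mean ± SD in black. All 4 Hdac3 KO libraries lie above the EV libraries for Gpi1, Tpi1, Gapdh, Pgk1, Pgam1, Eno1, Pkm and Ldha, those of Eno2 lie below, and Hk2, Pfkl and Aldoa lie closer to 100%.

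Levels per length spanned a wide range among the enzymes. In EV MCECs they ran from 7.11 ± 0.186 FPKM for Hk2 and 21.8 ± 0.888 for Pfkl to 1053 ± 21.2 for Pkm and 1583 ± 36.1 for Gapdh (SD, n = 4). The order of the enzymes was the same in Hdac3 KO MCECs except for 1 exchange. Aldoa stood above Tpi1 in EV MCECs (558 ± 14.1 against 510.5 ± 9.49 FPKM) and below it in Hdac3 KO MCECs (542 ± 3.60 against 596 ± 11.1 FPKM). Several of these genes share sequence with pseudogenes, related genes or genes that overlap them, and how the counting treated such reads is not given in the sources used here. For Pkm and Gpi1, shared windows can come from the overlapping exons named above. In the GENCODE annotation of the same build, other genes carried 53.9% of the 50-base windows of Pgk1 transcripts, 36.2% of those of Pgam1, 26.0% of those of Eno1, 25.8% of those of Pkm, 25.1% of those of Gapdh and 15.8% of those of Gpi1. Without the 12 of the 35 genes for which this share was over 10%, a choice made after seeing the data, 4 of the 6 glycolytic enzymes left were higher and 2 were lower. Hk2 and Aldoa, whose calls depended on single libraries and on the scaling, were among those higher. The enzymes left were not all free of shared windows. The share was 9.26% for Ldha, 6.43% for Aldoa and 4.18% for Tpi1, all higher, and 0% for Hk2. It was 0.03% for Pfkl and 0.1355% for Eno2, both lower. Over all genes 47.1% were higher and 49.6% lower, and the count of 6 genes was not tested against those shares.

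The enolases moved in different directions. Eno2 (ENSMUSG00000004267, chr6:124760053-124769673, minus strand), the enolase known from neurons and a known HIF target, had 614, 632, 651 and 661 normalized counts in EV and 504, 531, 515 and 444 in Hdac3 KO libraries, a fall of 22.2% (log2 fold change -0.36, standard error 0.06, adjusted p = 3.3e-07). Within each library, Eno1 took 98.0%, 98.0%, 97.9% and 97.9% of the summed FPKM of Eno1 and Eno2 in the EV libraries. In the Hdac3 KO libraries it took 99.0%, 98.9%, 99.0% and 99.1%. A share within a library does not depend on the scaling between libraries. The groups did not overlap (p = 0.0286 in a two-sided exact permutation test, which cannot go lower with 4 libraries a group, and 0.0343 after Benjamini-Hochberg adjustment over 6 shares). Each share, here and below, is a ratio of genes that were selected for differing between these same libraries. The p-values of the shares thus largely restate changes of single genes and add no separate evidence. The direction of this share turned when the third enolase was counted. Eno3 (ENSMUSG00000060600, chr11:70657202-70662513, plus strand), the enolase known from muscle and not a member, rose from 49.4 ± 1.36 to 148 ± 4.94 FPKM (SD, n = 4 each; log2 fold change 1.70, standard error 0.03, adjusted p = 3.1e-31), and no 50-base window of it was found in another gene. With Eno3 in the sum, a choice made after seeing the data, the share of Eno1 was 90.5% ± 0.14 in EV and 84.8% ± 0.272 in Hdac3 KO MCECs, and that of Eno3 was 7.65% ± 0.127 and 14.4% ± 0.32 (SD, n = 4). The groups did not overlap for either share (exact permutation p = 0.0286 for each, not adjusted). These shares restate the rise of Eno3, so that p-value adds no separate evidence.

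The PFKFB enzymes make and remove fructose-2,6-bisphosphate, the metabolite that stimulates phosphofructokinase. Pfkfb3 (ENSMUSG00000026773, chr2:11471430-11502101, minus strand), the form best known from endothelial cells, rose, and Pfkfb2 fell. Pfkfb3 had 1160.0, 1178, 1210.5 and 1060.3 normalized counts in EV and 1848, 1809, 1799 and 1754 in Hdac3 KO libraries, 56.7% higher (log2 fold change 0.65, standard error 0.04, adjusted p = 4.9e-17). All Hdac3 KO libraries lay above all EV libraries. Pfkfb4 (ENSMUSG00000025648, chr9:108991902-109032223, plus strand) was near 100 normalized counts, with 89.8, 91.8, 102 and 98.9 in EV and 138, 132, 134 and 133 in Hdac3 KO libraries (log2 fold change 0.49, standard error 0.11, adjusted p = 8.3e-05). Pfkfb2 (ENSMUSG00000026409, chr1:130689182-130729253, minus strand) had 150.0, 147, 155 and 156 in EV and 102, 111, 136 and 91.5 in Hdac3 KO libraries (log2 fold change -0.47, standard error 0.11, adjusted p = 2.2e-04). The 4 Hdac3 KO values of Pfkfb2 were spread more widely than the EV values, and exons of other genes on the same strand overlap 17.4% of its exonic bases.

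Within a library, Pfkfb3 held 79.1%, 79.3%, 78.5% and 76.4% of the summed FPKM of the 3 genes in the EV libraries. In the Hdac3 KO libraries it held 85.0%, 84.6%, 83.4% and 85.0% (exact permutation p = 0.0286, adjusted 0.0343). The share of Pfkfb2 went from 11.7% ± 0.69 to 5.80% ± 0.932 and that of Pfkfb4 from 10.01% ± 0.714 to 9.70% ± 0.211 (SD, n = 4). Pfkfb3 was thus the main transcript among these 3 genes in both groups, and Pfkfb1 had no row, so its level is not known here.

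Pyruvate dehydrogenase kinases phosphorylate and switch off the pyruvate dehydrogenase complex. Both kinases with a row, Pdk1 and Pdk2, fell in Hdac3 KO MCECs. Pdk1 (ENSMUSG00000006494, chr2:71873224-71903858, plus strand), a known HIF target, had 266, 271, 303 and 303 normalized counts in EV and 195, 215, 242 and 218 in Hdac3 KO libraries, a fall of 24.0% (log2 fold change -0.39, standard error 0.08, adjusted p = 2.8e-05). Pdk2 (ENSMUSG00000038967, chr11:95026258-95041354, minus strand) had 301, 319, 312 and 319 in EV and 196, 178, 194 and 178 in Hdac3 KO libraries, a fall of 40.5% (log2 fold change -0.75, standard error 0.07, adjusted p = 4.2e-11). The groups of both genes were apart. Pdha1, the catalytic alpha subunit of the complex that these kinases act on, fell by 0.14 on the log2 scale (adjusted p = 8.0e-05), and 16.1% of its exonic bases also lie in an exon of the other strand. Since Pdk2 fell further, Pdk1 took a larger share of the pair. It was 27.7%, 26.9%, 29.6% and 29.2% of their summed FPKM in EV and 30.1%, 34.4%, 35.1% and 34.7% in Hdac3 KO replicates 1 to 4 (exact permutation p = 0.0286, adjusted 0.0343). Hdac3 KO replicate 1 was lower than the other Hdac3 KO libraries and still above every EV library.

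Among the glycogen and glucose phosphate enzymes, 2 fell and 1 was not called. Gbe1, the glycogen branching enzyme, fell from 728 ± 25.4 to 573 ± 30.2 normalized counts (SD, n = 4 each; log2 fold change -0.34, standard error 0.05, adjusted p = 1.6e-07). The row named Pgm2 carries ENSMUSG00000025791 on chromosome 4, which GENCODE and RefSeq name Pgm1, a phosphoglucomutase that links glycogen to glycolysis. It fell from 1854 ± 20.6 to 1607 ± 28.2 (log2 fold change -0.21, standard error 0.03, adjusted p = 5.8e-07), and the gene that they name Pgm2, on chromosome 5, had no row. For the row on chromosome 4, 13.6% of the exonic bases also lie in an exon of the other strand. Gys1, glycogen synthase, had 769, 713, 761 and 737 in EV and 769.8, 858, 772 and 852 in Hdac3 KO libraries. The groups were just apart, and the adjusted p of 0.011 lay outside the cut-off (log2 fold change 0.13, standard error 0.05). It fell inside the cut-off with DESeq2's size factors (0.0056), with the size factors behind the deposited group means (0.0029), and without Hdac3 KO replicate 1 (0.0043) or 3 (0.0039).

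Both HIF alpha subunits were lower in Hdac3 KO MCECs, Epas1 by far the more. Epas1 (ENSMUSG00000024140, chr17:86753907-86833410, plus strand), which encodes HIF-2 alpha and is known from endothelium, had 588, 632, 636 and 588 normalized counts in EV and 296, 339.7, 309 and 306 in Hdac3 KO libraries. The highest Hdac3 KO library was far below the lowest EV library, and the mean fell by 48.7% (log2 fold change -0.96, standard error 0.06, adjusted p = 1.4e-16), the largest change in size among the 35 genes. Hif1a (ENSMUSG00000021109, chr12:73901375-73947530, plus strand), which encodes HIF-1 alpha, had 4136, 3759, 3755 and 3710.5 in EV and 3293, 3323, 3386 and 3292 in Hdac3 KO libraries, a fall of 13.4% (log2 fold change -0.21, standard error 0.03, adjusted p = 2.5e-07). EV replicate 1 stood above the other EV libraries, and without it the log2 fold change of Hif1a was -0.17. Arnt (ENSMUSG00000015522, chr3:95434388-95497240, plus strand), the shared beta subunit, had 2593, 2734, 2701 and 2723 in EV and 2913, 2949, 2890.4 and 2856 in Hdac3 KO libraries (log2 fold change 0.11, standard error 0.03, adjusted p = 7.7e-04), a rise of 7.92% that was -0.01 on the log2 scale under library totals without TMM.

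Of the 2 alpha subunits, Hif1a was the more abundant per length, with 43.5 ± 2.37 FPKM against 6.15 ± 0.269 for Epas1 in EV MCECs. Its share of their summed FPKM was 88.8%, 87.0%, 86.9% and 87.6% in the EV libraries and 92.6%, 91.7%, 92.5% and 92.4% in the Hdac3 KO libraries (exact permutation p = 0.0286, adjusted 0.0343). The share did not overlap between the groups.

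The oxygen sensors and the ubiquitin ligase subunit moved by at most 0.28 on the log2 scale. Egln2 (ENSMUSG00000058709, chr7:27158658-27166802, minus strand), a prolyl hydroxylase, had 1458, 1491, 1506 and 1576 normalized counts in EV and 1381, 1268, 1277 and 1194 in Hdac3 KO libraries (log2 fold change -0.24, standard error 0.04, adjusted p = 1.6e-06). Hif1an (ENSMUSG00000036450, chr19:44562850-44576274, plus strand), the asparaginyl hydroxylase that limits HIF activity, had 2396, 2473, 2375 and 2419.8 in EV and 2947, 3044, 2732 and 2995 in Hdac3 KO libraries (log2 fold change 0.28, standard error 0.03, adjusted p = 1.5e-09). The groups of both were apart, with Egln2 lower and Hif1an higher. Vhl (ENSMUSG00000033933, chr6:113623959-113631633, plus strand) had 830.4, 725, 748 and 832 in EV and 882, 855, 878 and 829 in Hdac3 KO libraries, and the groups overlapped. Its adjusted p was 0.0087 (log2 fold change 0.13, standard error 0.05), and it left the cut-off without EV replicate 2 (0.053), EV replicate 3 (0.042) or Hdac3 KO replicate 1 (0.020), 2 (0.01045) or 3 (0.018), and under library totals without TMM (0.76).

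**Figure D3:**
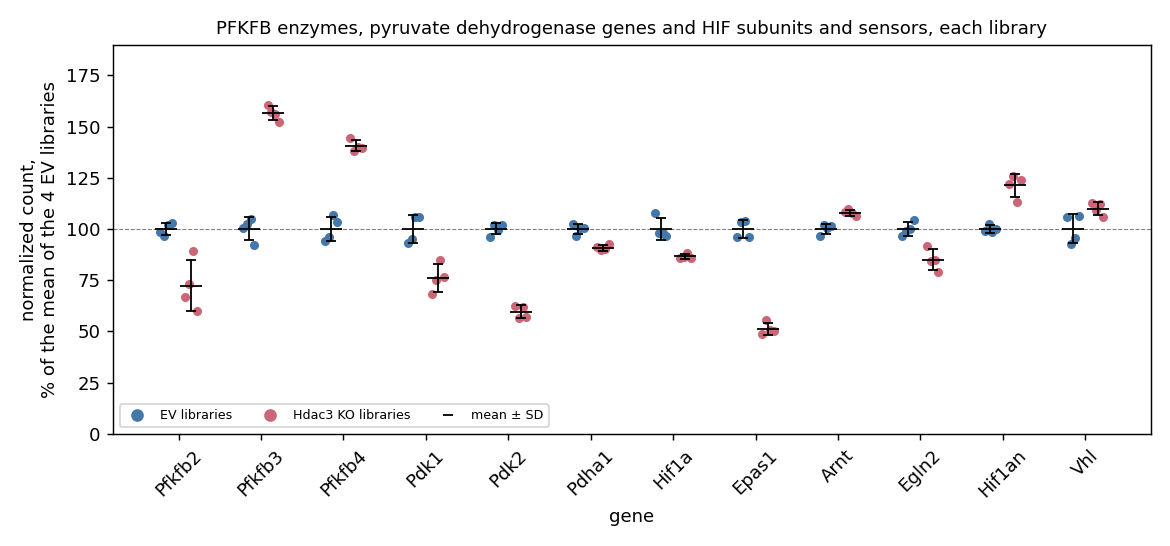
Normalized count in each library, as a percentage of the mean of the 4 EV libraries (y axis), for the PFKFB enzymes, the pyruvate dehydrogenase genes and the HIF subunits and sensors (x axis), with the mean ± SD in black. Epas1 and Pdk2 lie lowest in Hdac3 KO libraries, Pfkfb3 lies highest, and only for Vhl do the groups overlap.

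Of 8 genes with a row that HIF is known to activate, 3 rose, 4 fell and 1 was not called, with a median log2 fold change of -0.04 against 0.06 over all genes. These counts are near the shares over all genes, 47.1% higher and 49.6% lower, and are no result about the HIF targets. Hilpda (ENSMUSG00000043421, chr6:29272488-29275446, plus strand), a lipid droplet protein that inhibits lipolysis, had 161, 140.4, 131 and 151 normalized counts in EV and 207, 221, 221 and 205 in Hdac3 KO libraries, 46.9% higher (log2 fold change 0.55, standard error 0.09, adjusted p = 8.8e-07). Mxi1 (ENSMUSG00000025025, chr19:53310506-53375810, plus strand), a repressor of the MYC network, had 1130.5, 1175, 1156 and 1121 in EV and 791, 774, 798 and 697 in Hdac3 KO libraries, a fall of 33.3% (log2 fold change -0.58, standard error 0.04, adjusted p = 3.3e-14). Both were without overlap, in opposite directions. Higd1a, a mitochondrial inner membrane protein, rose by 0.32 and Ndrg1, a stress-response gene, fell by 0.31 on the log2 scale. For Higd1a, 22.5% of the exonic bases also lie in an exon of the other strand. The sources used here do not say whether reads were counted by strand.

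Bnip3 and Bnip3l encode receptors for mitophagy, the removal of mitochondria. Bnip3 (ENSMUSG00000078566, chr7:138890836-138909519, minus strand) had 408, 373, 421 and 431 in EV and 327, 347, 362 and 308 in Hdac3 KO libraries (log2 fold change -0.28, standard error 0.07, adjusted p = 1.9e-04), and 22.2% of its exonic bases also lie in an exon of the other strand. Bnip3l (ENSMUSG00000022051, chr14:66985239-67008877, minus strand) had 3083, 3089.7, 2989 and 2946 in EV and 2727, 2684, 2897 and 2799.7 in Hdac3 KO libraries (log2 fold change -0.12, standard error 0.03, adjusted p = 3.6e-04). Both fell, and other annotated genes carried 47.2% of the 50-base windows of Bnip3 and 20.8% of those of Bnip3l. The share of Bnip3l in the pair was 80.0% ± 1.34 in EV and 81.7% ± 1.03 in Hdac3 KO MCECs (SD, n = 4), a difference of 1.69 percentage points with overlapping groups (exact permutation p = 0.114).

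P4ha1 and P4ha2 encode alpha subunits of the prolyl hydroxylase that modifies collagen. P4ha3, which the study calls a major enzyme of collagen synthesis, is not a member and was not counted in the share below. P4ha1 (ENSMUSG00000019916, chr10:59323296-59373304, plus strand) had 5553, 5305, 5425 and 5639 normalized counts in EV and 5557, 5674, 5666 and 5635 in Hdac3 KO libraries (log2 fold change 0.04, standard error 0.03, adjusted p = 0.15). The groups overlapped, and under library totals without TMM its log2 fold change was -0.08 with an adjusted p of 0.0067, lower in Hdac3 KO MCECs. P4ha2 (ENSMUSG00000018906, chr11:54100095-54131665, plus strand) had 1138, 1296, 1284 and 1331 in EV and 1510.2, 1455, 1515 and 1505 in Hdac3 KO libraries, 18.2% higher (log2 fold change 0.24, standard error 0.04, adjusted p = 1.5e-06). The share of P4ha1 in the pair, which no scaling between libraries moves, was 78.7%, 75.6%, 76.2% and 76.2% in EV and 73.6%, 74.7%, 73.9% and 73.9% in Hdac3 KO replicates 1 to 4 (exact permutation p = 0.0286, adjusted 0.0343).

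**Figure D4:**
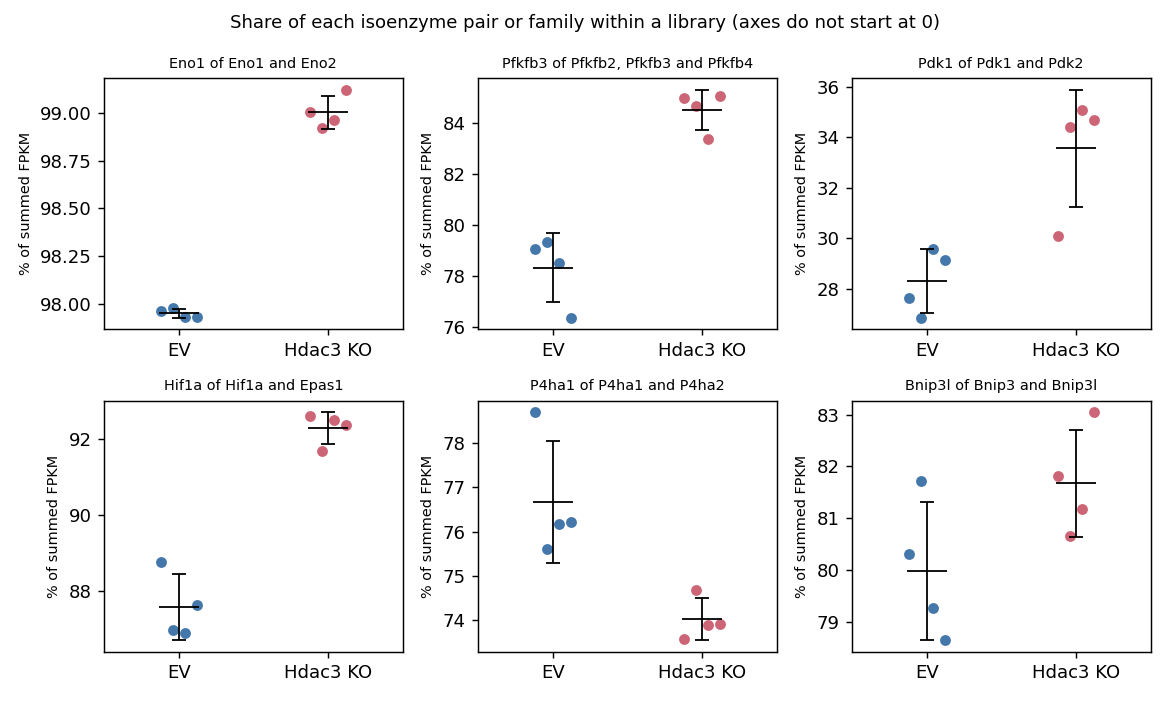
Share of 1 gene in the summed FPKM of its pair or family within each library (y axis, percent, not starting at 0) in EV and Hdac3 KO MCECs (x axis), with the mean ± SD in black. The groups are apart for Eno1, Pfkfb3, Pdk1, Hif1a and P4ha1 and overlap for Bnip3l. The Eno1 panel leaves out Eno3, and the P4ha1 panel leaves out P4ha3.

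Other genes of the same pathways, in lists chosen with earlier results of these data known, gave the surroundings of these values, and their counts are read against the 47.1% of all genes that were higher and the 49.6% that were lower. Of 27 further genes of glucose and lactate transport and glycolysis, 11 had a row, of which 5 rose and 6 fell. Eno3 had the highest log2 fold change, and next among genes of at least 100 normalized counts was Eno1b, a retrotransposed copy of Eno1 whose transcripts share 85.2% of their 50-base windows with other genes, mostly Eno1 (3830.1 ± 135 to 6009 ± 279 normalized counts, log2 fold change 0.65). The lowest of that level were Slc2a8, a glucose transporter (-0.56), and Galm, galactose mutarotase (-0.41). Slc2a1, the main glucose transporter of many cells, had no row. Of 11 further genes of pyruvate entry into mitochondria, 8 had a row and 4 rose and 4 fell. The 4 that rose were Pdhb, Dlat, Dld and Pdhx, the subunits of the complex named above. Among those that fell were Pcx, pyruvate carboxylase (-0.38), and Pdp1, the phosphatase that reverses the kinases (-0.28).

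Of 22 glycogen genes outside the members, 12 had a row, and 10 fell, 1 rose and 1, Gsk3a, was not called, where 49.6% of all genes of the table were lower and 47.1% higher. Their median log2 fold change was -0.41, against 0.06 over all genes. Pygb, a glycogen phosphorylase, fell from 2868 ± 92.8 to 1739 ± 57.9 normalized counts (SD, n = 4 each; log2 fold change -0.72). Stbd1, a glycogen-binding protein, rose from 552 ± 18.3 to 1000.0 ± 45.6 (0.86). In the pentose phosphate pathway, which branches from glycolysis to make NADPH and ribose, 8 of 11 genes had a row, and 6 rose and 2 fell. Rpia (0.81) and G6pdx (0.73), which encodes the enzyme of the first step, rose most, and H6pd, its counterpart of the endoplasmic reticulum (-0.65), and Pgls (-0.34) fell.

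Of 22 further regulators of HIF, 13 had a row, and 8 rose and 5 fell. The chaperone genes Hsp90aa1 and Hsp90ab1 rose with log2 fold changes of 1.04 and 0.55, and Arnt2, a relative of Arnt, fell from 3225 ± 89.2 to 1516 ± 69.5 normalized counts (SD, n = 4 each; log2 fold change -1.09), as did Os9 (-0.76). Of 35 further genes known to respond to hypoxia, 30 had a row, and 17 rose and 13 fell, with a median log2 fold change of 0.37 against 0.06 over all genes. These counts lie near the shares over all genes, 47.1% higher and 49.6% lower. Ero1l, an oxidase of the endoplasmic reticulum, rose from 940.3 ± 41.2 to 3994 ± 54.6 (log2 fold change 2.09, standard error 0.03). The lowest among genes of at least 100 normalized counts were Zfp395 (-1.05) and Tmem45a (-0.94). Several genes of this list also respond to other stresses, so that the list is not particular to hypoxia. Under library totals without TMM the counts were 15 higher and 13 lower for the hypoxia list and 5 and 5 for the HIF regulators, where Tceb2 and Cul2 changed direction. Under that scaling 2671 of all 8278 genes were higher and 4120 lower, so the shares of the main scaling do not apply to these counts.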

How the data were processed

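Bulk RNA-Seq libraries of 4 EV and 4 Hdac3 KO MCEC samples were analysed, grouped by the sample titles. Per the study's methods, samples prepared by a provider's guidelines were read on an Illumina NextSeq500, and the reads were aligned to mm10 with tophat2 and bowtie2. The submitters' processing notes name CASAVA and DESeq 1.6.3. For the steps after alignment, the study's methods give cufflinks, lumi and DESeq2, and which of these programs, if any, made the deposited counts is not given in the sources used here. The authors deposited raw read counts per gene. The authors also deposited FPKM values, scaled to gene length and library total. The deposited group means are a signal, the mean over a group of size-factor-normalized counts. The authors' p-values and fold changes were not used, except to test that all 8278 rows have an adjusted p-value under 0.05. The table is thus a selection on the same libraries.

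Library totals were recovered from count, length and FPKM and multiplied by TMM factors. Genes were tested on all 8278 rows with edgeR 4.0.16 in R 4.3.3 (quasi-likelihood test, Benjamini-Hochberg adjustment, cut-off 0.01, no filter). The reads carry no molecular identifiers, so their number sets counting error only. At this depth the smallest called log2 fold change was 0.07, and the lowest value of a member in any library was 89.8 normalized counts. Isoenzyme shares were compared with two-sided exact permutation tests over 70 arrangements. The members and the lists were chosen with earlier results of these data known. Named with values in every library were members with a log2 fold change beyond 0.5, HIF subunits and sensors, and members with an isoenzyme in the table. From each further list the 2 highest and 2 lowest called genes were named if the higher group averaged 100 normalized counts or more. Some genes that this rule names are not reported here. Described outside that rule were genes named as having no row, Pdhb, Dlat, Gsk3a, cell-type markers, lost calls, changes of direction and Eno3's share. Exon overlaps and shared 50-base windows come from GENCODE and promoters from RefSeq, both on the mm10 build. Alternatives were DESeq2 1.42.0, 3 other scalings, a replicate block, a filter of 10 counts in 4 libraries, other cut-offs and leaving out each library. Python 3.11.15 with matplotlib 3.10.9 drew the figures.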

Additional observations from a re-analysis of the deposited data

Results flagged for a closer look

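In 82 groups of 4 libraries, 1 for each gene or share and condition, the gap of the farthest library to its nearest neighbour was compared with the range of the group. It was larger than Dixon's 95% limit in 4 of them, where chance alone gives 4.1. For Hif1a, EV replicate 1 had 4136 normalized counts and the other EV libraries 3710.5 to 3759 (gap divided by range 0.887). For Pgam1, EV replicate 3 had 9669 and the other EV libraries 9868 to 9893 (0.891). For P4ha2, Hdac3 KO replicate 2 had 1455 and the other Hdac3 KO libraries 1505 to 1515 (0.831). The Pdk1 share of Pdk1 and Pdk2 was 30.1% in Hdac3 KO replicate 1 and 34.4% to 35.1% in the other Hdac3 KO libraries (0.865). Without the library that stood apart, the log2 fold change of Hif1a was -0.17, and the Pdk1 share differed between the groups by 6.39 percentage points, against -0.21 and 5.25 with all libraries.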

How the results depend on the processing

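With each library left out in turn, 15 genes were always lower and 15 to 18 were higher, with a median log2 fold change of 0.09 to 0.12. Of 280 values of single genes in these fits, none changed direction, 9 left the cut-off (Hk2, Aldoa and Vhl) and 2 came inside it (Gys1). The 6 shares kept their direction in all 48 of theirs. Under the other settings, library totals without TMM gave a median of -0.0074 and values of -0.041 for Aldoa, -0.0074 for Arnt (the middle gene) and -0.078 for P4ha1, and the recovered size factors gave a median of 0.14. With a log2 fold change beyond 0.5 required, 3 genes were lower and 7 higher. Chosen after seeing the data, leaving out the 12 genes with shared windows gave a median of 0.077, and adding Eno3 turned the difference in the Eno1 share from 1.05 to -5.69 percentage points. DESeq2's Wald test gave 18 higher and 15 lower genes, as did the low-count filter. Same-numbered libraries did not deviate together (correlations of -0.107 to 0.119 across 7183 genes, which are not independent replicates), and the replicate block gave 18 higher and 15 lower genes with a median of 0.11. Since the table holds only selected genes, members without a row are outside every count, and the counting of reads shared with pseudogenes cannot be examined from it.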
